A study of Homo sapiens with 6 samples.

Results

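The genes described here are peroxisome biogenesis factors (peroxins), the proteins that tie peroxisomes to the endoplasmic reticulum (ER) around *ACBD5*, the factors of peroxisome division and the lipid enzymes of the peroxisome. They were taken from the table by gene symbol, which gave 34 of its 20381 genes, and 33 of these passed the filter on low counts. The list was chosen by function around *ACBD5*, with the measured PON1-OE against NC differences of these libraries, that of *ACBD5* among them, already known, so the values of its members between the groups are given as a description and carry no test. RNA-seq was performed on HCCLM3 cells, a human hepatocellular carcinoma (HCC) line with low expression of *PON1*, which encodes the serum esterase paraoxonase. One group stably overexpressed the full-length *PON1* coding sequence from a lentivirus (PON1-OE, 3 libraries). The other was the negative control (NC, 3 libraries), an empty lentivirus according to the design text of the series. All cells were of the same line, and the paper describes selection with puromycin. Whether the 3 libraries of a group came from separate infections or cultures is not stated in the sources used here, so n counts libraries and every SD or SE describes the spread between them. The sources differ in the serum content of the medium, and the design text places lysis soon after transfection although the labels name a stable overexpression.

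Peroxisomes are small organelles with a single membrane that shorten very-long-chain and branched fatty acids, start the synthesis of ether lipids and break down hydrogen peroxide, and they are abundant in liver cells. Peroxins insert the membrane proteins of the organelle and import its enzymes from the cytosol, where they are made. ACBD5 sits in the peroxisomal membrane, binds acyl-CoA and holds the ER protein VAPA or VAPB, so that the organelles stay in contact. ACBD4 is its closest relative and can make the same contact.

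The promoter windows of *ACBD5* and its relative *ACBD4* are shown. They were picked because *ACBD5* was the single member that passed the threshold used for all genes. A link between the letters of a window and the level of its gene was not tested. Each window runs from 250 bases before to 50 bases after the start that the promoter reference gives (RefSeq, GRCh38.p14). Capitals mark the letters GGGCGG, a GC box, searched on both strands. That start can differ from the outermost start of the gene in GENCODE v29. The *ACBD5* window lies inside the gene, which runs from 27195214 to 27242130 there. The windows of *IDH1*, *FIS1*, *PEX16*, *PEX19*, *PEX13*, *PECR*, *PHYH* and *HACL1* also lie inside their genes. The *ACBD5* window lies at chr10:27240830-27241129 on the minus strand and the *ACBD4* window at chr17:45132369-45132668 on the plus strand.

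ACBD5: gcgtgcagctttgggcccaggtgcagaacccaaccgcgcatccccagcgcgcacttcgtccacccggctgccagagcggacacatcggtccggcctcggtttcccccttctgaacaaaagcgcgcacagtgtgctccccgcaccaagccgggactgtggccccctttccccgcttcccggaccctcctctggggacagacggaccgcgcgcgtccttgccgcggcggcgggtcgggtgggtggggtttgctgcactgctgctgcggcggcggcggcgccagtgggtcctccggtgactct

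ACBD4: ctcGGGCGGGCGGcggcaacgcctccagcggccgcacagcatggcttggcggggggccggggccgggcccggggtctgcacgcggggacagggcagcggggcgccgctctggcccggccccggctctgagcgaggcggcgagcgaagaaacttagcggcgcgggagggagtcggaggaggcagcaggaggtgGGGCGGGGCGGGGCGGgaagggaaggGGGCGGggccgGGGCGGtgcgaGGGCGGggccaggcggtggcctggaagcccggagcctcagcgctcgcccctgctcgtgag

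The *ACBD5* window was 71% G or C with 33 CpG dinucleotides and held no GC box. The windows of *PEX3*, *PEX5*, *PEX7*, *PEX6*, *AMACR*, *HACL1* and *GNPAT* held none either, and none of these genes passed the threshold. The *ACBD4* window was 80% G or C with 39 CpG dinucleotides and 8 GC boxes, some of which overlapped. Of the 34 members, 29 had a promoter in the reference table (*PEX14*, *PEX2*, *ACAA1*, *EHHADH* and *CRAT* had none). Their median G or C content was 65.7%, from 53.3% to 80%, against a median of 58.7% over 35116 promoters, and their median number of CpG dinucleotides was 23 against 14. A GC box occurred in 21 of the 29 windows (72.4%) and in 45% of all promoters. The letters CCGGAAG, an ETS factor motif, occurred in 9 windows (31%) and in 10.3% of all promoters, among them those of *VAPB*, *PEX5*, *PEX16*, *PEX26*, *PEX11A* and *FIS1*. CCAAT occurred in 11 windows (37.9%), close to the 34.6% of all promoters, and CACGTG in 4 (13.8%) against 7.26%. AGGTCA, to which nuclear receptors such as PPARα bind, occurred only in the window of *AGPS* (3.45% against 13.8%). The direct repeat of AGGTCA with a single base between its copies and the cAMP response element TGACGTCA were found in 0 of the 29 windows, and occurred in 0.0228% and 1.85% of all promoters. Both strands were searched for each motif, and a match is a description of the letters in the window. Each member counts with a single promoter, whereas the 35116 are all promoters of the reference, whether their genes are expressed here or not. The shares and medians therefore compare unlike sets.

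*PON1* was read first as a check of the labels. The NC libraries held 0, 2 and 3 estimated counts of it, and the PON1-OE libraries 155, 181 and 167. The library totals ranged from 15706672 to 17948383 estimated counts. Levels are given as CPM, counts divided by the TMM-scaled size of the library, and a count of 3 corresponded to 0.166 to 0.192 CPM, which covers counting error only. Of the hepatocyte and liver tumor markers, *KRT8*, *KRT18* and *HNF4A* were expressed in both groups, with means between 78.6 and 2410 CPM, while *ALB*, *APOA1*, *APOA2*, *TTR* and *SERPINA1* were below 0.6 CPM on average. *APOB*, *FGB* and *AFP* lay between 0.513 and 5.77 CPM. The leukocyte gene *PTPRC* was at 0 in every library. The endothelial gene *VWF* and the fibroblast and stellate cell genes *COL1A1*, *COL3A1* and *ACTA2* were below 0.5 CPM. *CD68* (215 and 235 CPM in NC and PON1-OE, log2FC 0.13, edgeR adjusted p = 0.252) and *PECAM1* (13.1 and 15.1 CPM, log2FC 0.21, edgeR adjusted p = 0.452) were expressed in both groups with estimates on the higher side in PON1-OE. The groups of *PECAM1* did not overlap, those of *CD68* did, and the part of these genes in the results was not tested. Across all 11958 genes tested, the quasi-likelihood test of edgeR gave 81 with an adjusted p under 0.05 (0.677%), of which 60 were higher (0.502%) and 21 lower (0.176%) in PON1-OE.

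The tethers were described first. *ACBD5* (ENSG00000107897, chr10:27195214-27242130, minus strand, GRCh38 in GENCODE v29) was at 40.8, 42.4 and 44.0 CPM in the NC libraries and at 35.0, 33.6 and 35.0 CPM in the PON1-OE libraries. All PON1-OE values lay under the lowest NC value, so the groups did not overlap. The means were 42.4 ± 1.61 and 34.5 ± 0.764 CPM (SD, n = 3), a log2 fold change (log2FC, PON1-OE against NC) of -0.30 (SE 0.065, 95% interval -0.43 to -0.16), so the level fell by 18.6%. *ACBD5* was the only one of the 33 members past the threshold, and the share of all genes past it in the lower direction was 0.176%. With the added requirement of a 1.5-fold change, the fold threshold of the study's methods, 0 members passed, and 0.0502% of all genes did. When any one of the 6 libraries was left out *ACBD5* no longer passed the adjusted threshold, while the log2FC stayed between -0.32 and -0.27 over the 12 alternative fits. No exon of *ACBD5* overlapped that of another gene in the table. The nearby genes *MASTL* and *YME1L1* had log2FC of 0.06 and 0.03, with overlapping groups. Whether they cover both sides of *ACBD5* was not examined.

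*ACBD4* overlapped between PON1-OE (2.62, 3.38 and 3.96 CPM) and NC (3.03, 2.54 and 3.69 CPM). These values rest on 43 to 63 counts in a library, and the log2FC of 0.10 had a 95% interval from -0.36 to 0.56, which is too wide to place *ACBD4* beside or apart from *ACBD5*. The direction turned without PON1-OE replicate 3 (log2FC -0.04) and without NC replicate 2 (-0.02). The ER partners were measured far more precisely. *VAPA* was at 476, 466 and 459 CPM in the NC libraries and at 462, 483 and 476 CPM in those with PON1-OE, with a log2FC of 0.02 (95% interval -0.05 to 0.09). *VAPB* was at 79.8, 78.8 and 81.1 CPM in the NC libraries and at 84.1, 80.2 and 87.9 CPM in those with PON1-OE, with a log2FC of 0.07 (95% interval -0.03 to 0.18). For both VAP genes the groups overlapped.

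**Figure D1:**
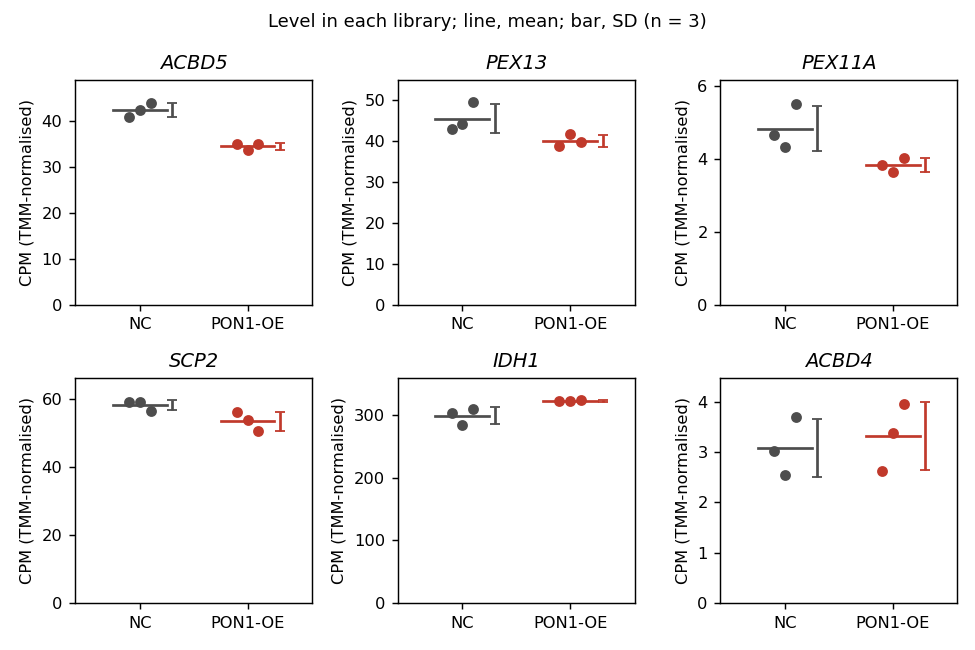
Level of 6 members in each library, in CPM after TMM scaling on axes that start at 0, for NC (grey) and PON1-OE (red). Points are libraries, lines are means and bars are SD (n = 3). *ACBD5*, *PEX13*, *PEX11A* and *SCP2* were lower in every PON1-OE library than in every NC library, *IDH1* was higher in every PON1-OE library, and the groups of *ACBD4* overlapped.

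The peroxins that place proteins in the membrane had estimates near 0. PEX19 is the chaperone of new membrane proteins and PEX3 and PEX16 receive it at the membrane. Their log2FC were 0.06 for *PEX19*, 0.0021 for *PEX3* and 0.07 for *PEX16*, and all 3 intervals lay within 0.3 in either direction. The import receptor *PEX5*, which binds the C-terminal signal of most enzymes, was at 88.7, 91.7 and 90.6 CPM in the NC libraries and at 90.8, 92.6 and 92.8 CPM in those with PON1-OE (log2FC 0.03, 95% interval -0.07 to 0.12). *PEX7*, the receptor for the N-terminal signal of a few enzymes such as ACAA1, PHYH and AGPS, had the fewest counts of all members tested, between 24 and 58. Its log2FC was -0.23 with an interval from -0.76 to 0.30, and it became 0.02 without PON1-OE replicate 3, so its direction rests on that library.

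PEX13 and PEX14 form the docking site where loaded receptors meet the membrane. *PEX13* (ENSG00000162928, chr2:61017225-61051990, plus strand) was at 42.8, 44.1 and 49.4 CPM in the NC libraries and at 38.8, 41.7 and 39.7 CPM in those with PON1-OE. The groups did not overlap, the log2FC was -0.18 (SE 0.068, 95% interval -0.32 to -0.04), and it lay between -0.22 and -0.12 over the alternative fits. *PEX13* shares 293 exonic bases with *PUS10* on the opposite strand, and the library kit did not mark strand, so reads of the shared stretch cannot be told apart. In all, 9 members share exonic bases with a gene on the opposite strand and 5 with a gene on the same strand, and their estimates carry the same limit. The longest opposite-strand stretches were those of *PEX10* with *RER1* (1481 bases) and *ACAA1* with *DLEC1* (1403 bases). On the same strand *PEX26* shares 1349 bases with *TUBA8* and *PEX19* 729 bases with a gene that has no symbol in the table. *PEX14* had a log2FC of 0.10 (95% interval -0.14 to 0.35) with overlapping groups. PEX2 and PEX10, parts of the ubiquitin ligase that marks receptors for release, had log2FC of -0.07 and -0.05. PEX6, a motor ATPase that pulls marked receptors out, had the highest estimate of the members in the fit of all 6 libraries at 0.16 (95% interval -0.07 to 0.39), and that of PEX26, its membrane anchor, was 0.06. That of *PEX6* rests on single libraries, since it was 0.06 without NC replicate 2 and 0.28 without NC replicate 1, and both genes had overlapping groups. Without NC replicate 3 the estimates of *ACBD4* and *PECR* (0.25 each) were above that of *PEX6* (0.15).

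Among the division factors, PEX11A, which helps to elongate the membrane, had the lowest estimate of the members in the fit of all 6 libraries. *PEX11A* (ENSG00000166821, chr15:89677764-89690783, minus strand) was at 4.66, 4.31 and 5.51 CPM in the NC libraries and at 3.84, 3.63 and 4.02 CPM in those with PON1-OE. The groups did not overlap, but at 58 to 94 counts in a library the log2FC of -0.33 (SE 0.17) had an interval from -0.69 to 0.03. The GTPase that cuts the organelle, *DNM1L*, and its adaptors *FIS1* and *MFF*, which also serve mitochondria, had log2FC of 0.01, 0.01 and -0.03. *FIS1* was the steadiest member, at 146, 144 and 147 CPM in the NC libraries and 146, 145 and 147 CPM in those with PON1-OE. *DNM1L* varied more within PON1-OE (91.9, 74.1 and 91.2 CPM) than between the groups.

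Of the 9 enzymes around β-oxidation, 1 had groups that did not overlap, SCP2, a thiolase for branched chains that also yields a sterol carrier protein. Over all genes tested, groups did not overlap for 16.1%, and for 7.74% in the lower direction, so 1 of 9 says little about these enzymes. *SCP2* (ENSG00000116171, chr1:52927229-53051703, plus strand) was at 59.2, 59.2 and 56.7 CPM in the NC libraries and at 56.2, 53.8 and 50.6 CPM in those with PON1-OE. The gap between the groups was small, since the lowest NC library (56.7 CPM) was close to the highest PON1-OE library (56.2 CPM), and the log2FC was -0.12 (SE 0.058, 95% interval -0.25 to -0.0020). The bifunctional enzymes *HSD17B4* and *EHHADH* had log2FC of 0.02 and -0.07, and the thiolase *ACAA1* one of -0.0049. The racemase *AMACR*, which prepares branched chains, was at 0.04, the enoyl-CoA isomerase *ECI2* at 0.06 and the carnitine acetyltransferase *CRAT*, which helps to move short products out, at -0.01. The malonyl-CoA decarboxylase *MLYCD* was at -0.15 and the enoyl-CoA reductase *PECR* at 0.14. None of these 8 had groups that stood apart. The estimate for *PECR* rests on NC replicate 1 (5.09 CPM against 7.85 and 8.15 CPM in the other NC libraries), without which it was -0.05. Reads of *AMACR* are uncertain, because it shares 2660 exonic bases on the same strand with the readthrough gene *C1QTNF3-AMACR*.

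α-Oxidation removes a single carbon from phytanic acid. Its hydroxylase *PHYH* had a log2FC of -0.07 and the lyase *HACL1* one of 0.08, with overlapping groups. In ether lipid synthesis, *GNPAT*, the acyltransferase of the first step, had a log2FC of 0.08 and *AGPS*, which inserts the ether bond, one of 0.04. *FAR1*, the reductase that supplies the fatty alcohol, was listed at 0 in all 6 libraries and was not tested. Of 40 widely expressed genes looked at for comparison, 0 were listed at 0 in all libraries and 1, *TUBA1A*, in some of them, with at most 6 counts in the rest. Whether the listed 0 of *FAR1* is a measured absence was not tested.

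IDH1 makes NADPH from isocitrate in the cytosol and in peroxisomes, and was the member with a higher level in every PON1-OE library. Over all genes tested, 8.32% were likewise higher in every PON1-OE library than in every NC library. *IDH1* (ENSG00000138413, chr2:208236227-208266074, minus strand) was at 303, 284 and 310 CPM in the NC libraries and at 322, 322 and 324 CPM in those with PON1-OE. The means were 299 ± 13.3 and 323 ± 1.33 CPM (SD, n = 3), and NC varied far more than PON1-OE. The log2FC was 0.11 (SE 0.038, 95% interval 0.03 to 0.19), a level 7.98% higher, and it did not pass the adjusted threshold. The summed CPM of all members was 1943 to 1967 in NC and 1973 to 2001 in PON1-OE, and without *IDH1* the sums overlapped (1649 to 1659 in NC and 1651 to 1676 in PON1-OE).

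**Figure D2:**
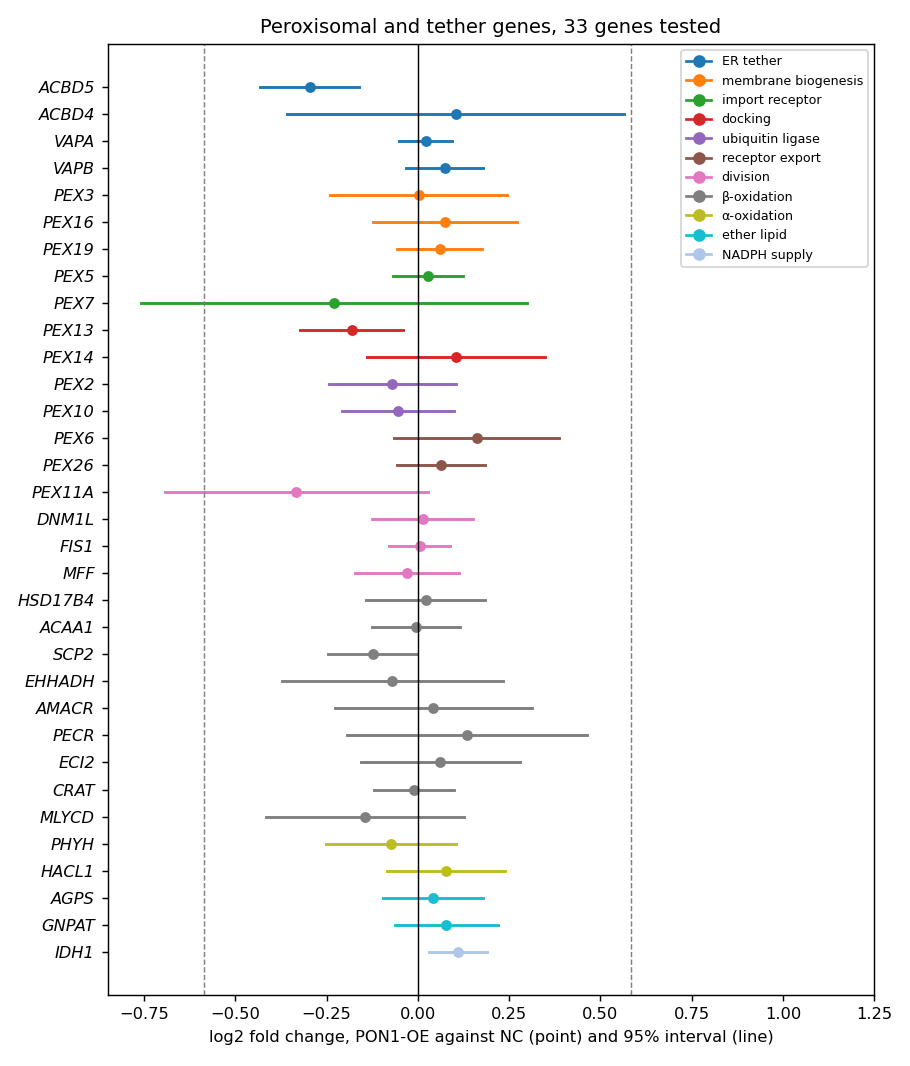
log2 fold change of the 33 members tested (points, PON1-OE against NC) with 95% intervals (lines), ordered and colored by role. Dashed lines mark a 1.5-fold change in either direction. Estimates ran from -0.33 for *PEX11A* to 0.16 for *PEX6*, and the intervals of *PEX7* and *PEX11A* reached past the lower dashed line.

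Estimates of the 33 members were on the higher side for 20 and on the lower side for 13, with a median log2FC of 0.02 against -0.0025 over all genes tested. This split is not firm, because 15 members changed direction in at least one alternative fit and 18 kept it. At an unadjusted p under 0.05 there were 4 members (*ACBD5*, *PEX13* and *SCP2* lower, *IDH1* higher), where the background was 11.1% of all genes, 5.17% lower and 5.91% higher. Groups did not overlap for 5 members, 4 lower and 1 higher, where the background was 16.1% of all genes, 7.74% lower and 8.32% higher. The 95% interval lay inside a 1.5-fold change in either direction for 31 of 33 members (all but *PEX7* and *PEX11A*) and for 86.1% of all genes. For 22 members it lay inside a log2FC of 0.3, as it did for 62.8% of all genes.

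**Figure D3:**
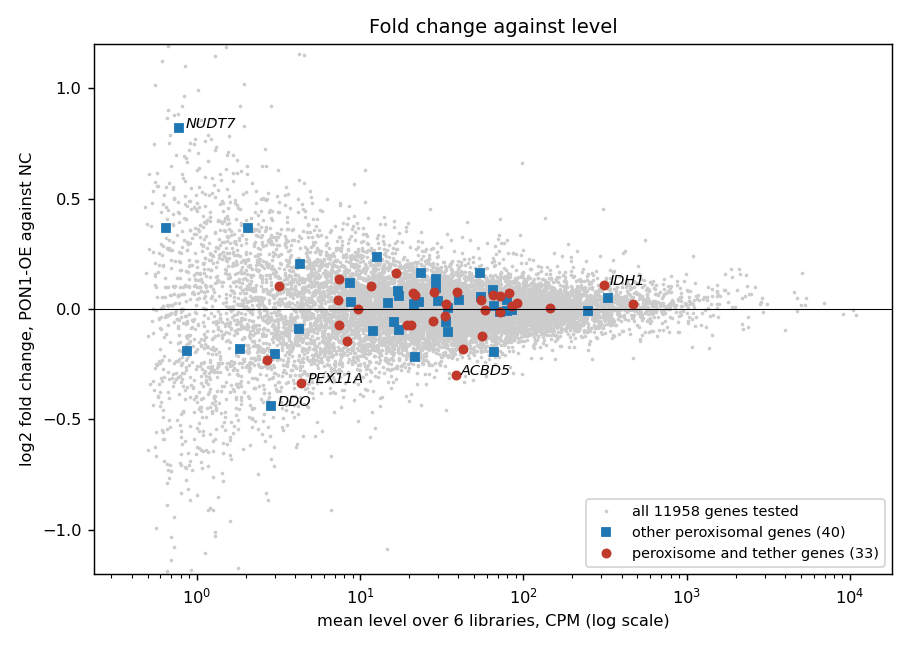
log2 fold change (PON1-OE against NC) against the mean level over 6 libraries in CPM (log scale) for the 11958 genes tested (grey), the 33 members (red) and 40 other peroxisomal genes (blue). Of the genes tested, 17 lie beyond the limits of the vertical axis. *ACBD5* sits at the lower edge of the grey cloud at its level, *IDH1* just above 0.1, and the widest values of the peroxisomal genes are at low CPM.

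Within groups, the members' spread had a median close to that of other genes. The SD of log2 CPM around the group means had a median of 0.086 over the members and 0.091 over all genes tested, at median levels of 33.1 and 28.8 CPM. It ran from 0.013 for *FIS1* to 0.40 for *PEX7*. The 4 members with under 100 counts in some library were *ACBD4*, *PEX7*, *PEX11A* and *PECR*, with SDs of 0.28, 0.40, 0.13 and 0.28.

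Levels of different members were compared per kilobase of the longest annotated transcript. The mean over the 6 libraries ran from 0.637 CPM per kilobase for *MLYCD* to 145 for *FIS1*, with a median of 9.39. *FIS1*, *IDH1* (127) and *VAPA* (69.0) led, all of which work outside peroxisomes as well. Below them stood *PEX5* (28.0), *CRAT* (26.1), *PEX19* (19.7) and *DNM1L* (19.2). *ACBD5*, at 10.2 ± 0.386 CPM per kilobase in NC and 8.27 ± 0.183 in PON1-OE (mean ± SD over libraries), stood near the middle, beside *VAPB* (10.3), *PEX13* (9.56) and *MFF* (9.39), whose ranges over the libraries overlapped with its own. *ACBD4* was at 1.43 over the 6 libraries, so the level of *ACBD5* was above that of its relative in every library. At the low end with *ACBD4* were *PEX7* (1.83), *AMACR* (1.77) and *PEX11A* (1.58), whose ranges over the libraries overlapped. The choice of transcript matters for some members, since 8 were over 1.5 times as high per kilobase of the principal transcript, among them *VAPA* (383, then above *FIS1* at 199), *ACAA1* (32.7 in place of 12.4) and *AMACR* (8.54).

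**Figure D4:**
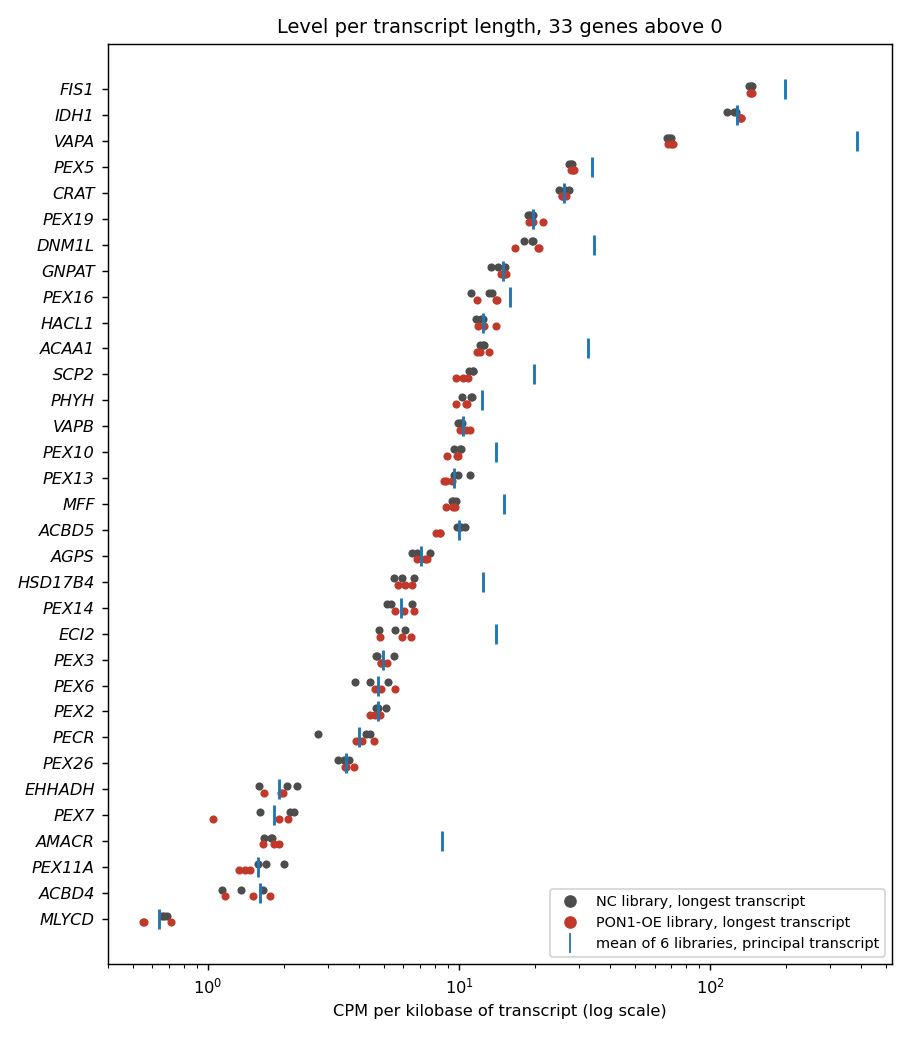
Level of 33 members in CPM per kilobase of the longest transcript (log scale) in each NC (grey) and PON1-OE (red) library, ordered by the mean, with the mean per kilobase of the principal transcript (blue ticks). Levels span from below 1 for *MLYCD* to 145 for *FIS1*, and the groups of *ACBD5* stand apart near the middle of the order.

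Genes of related function that are not on the list were read in the same fit, from lists made by known function. Of 49 other peroxisomal genes, 40 were tested and 0 passed an adjusted p under 0.05 in edgeR, 5 had an unadjusted p under 0.05, and their median log2FC was 0.03. Over all genes tested, 0.677% passed the adjusted and 11.1% the unadjusted threshold, so counts of 0 in lists of this size say little. The 5, named after their values were seen, were *DECR2*, *DHRS4* and *FAR2* on the higher side and *BAAT* and *HSDL2* on the lower side. The extremes were *NUDT7*, a hydrolase of CoA, at 0.82 (SE 0.40, edgeR adjusted p = 0.457) and *DDO*, the oxidase of D-aspartate, at -0.44 (SE 0.24, edgeR adjusted p = 0.521), both at levels of a few CPM or less. The untested 9 included *ACOX2*, *AGXT* and *HAO1*, each below 0.7 CPM on average.

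Partners of the VAP proteins and of ACBD5 gave the same count of calls, beside the same shares of all genes (0.677% adjusted, 11.1% unadjusted). Of 18 genes whose proteins bind VAP or share its domain, 17 were tested, 0 passed in edgeR and 1 had an unadjusted p under 0.05, *MOSPD3*, an ER protein with a VAP-like domain (log2FC 0.26, SE 0.11, edgeR adjusted p = 0.380). The lowest estimate was that of *OSBPL1A*, an oxysterol-binding protein, at -0.15 (SE 0.078, edgeR adjusted p = 0.504). Of the 4 other acyl-CoA-binding genes, 3 were tested with 0 calls and 0 at an unadjusted p under 0.05, from *DBI* at 0.06 to *ACBD6* at -0.13. None of the 7 further genes of organelle fission and fusion passed, with 0 at an unadjusted p under 0.05 and estimates from -0.08 for *MFN1* to 0.22 for *GDAP1*.

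Among the regulators of peroxisomal genes, 5 of 6 were tested and 0 passed in edgeR, where 0.677% of all genes did. At an unadjusted p under 0.05 there was 1, *PPARA*, where the background was 11.1%. The lowest estimate was that of *PPARA*, the nuclear receptor that drives peroxisomal β-oxidation genes in liver, whose mean was 24.8 ± 1.61 CPM in NC against 20.7 ± 1.59 CPM with PON1-OE (SD over 3 libraries each). The log2FC was -0.26 (SE 0.085, edgeR adjusted p = 0.225, unadjusted p = 0.00671). The groups did not overlap for *PPARA* and *PPARD*, where 7.74% of all genes had groups apart in the lower direction. *PPARD*, another receptor of this family named after its values were seen, had a log2FC of -0.19 (SE 0.10, edgeR adjusted p = 0.524). *PPARG*, also of this family and named in the same way, was at 176 CPM in both groups (log2FC -0.0058, edgeR adjusted p = 0.976). Its groups overlapped, and so did those of *RXRA* (log2FC -0.04), another regulator named after its values were seen. Over the alternative fits the adjusted p of *PPARA* lay between 0.143 and 0.576. *RXRB*, a partner of such receptors, had the highest estimate at 0.09. All 8 genes of peroxisome turnover were tested with 0 calls and 0 at an unadjusted p under 0.05 (0.677% and 11.1% of all genes), from *USP9X* at -0.07 to *TRIM37* at 0.11. limma-voom also gave 0 calls in each of these lists. DESeq2 gave 0 as well. Among the highest and lowest of each list, it set no adjusted p for *GDAP1*, *MOSPD3*, *NUDT7*, *PPARA*, *DDO* and *ACBD6*, which therefore could not be called there. The rest of the lists were not checked for a missing adjusted p.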

How the data were processed

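RNA-seq of poly(A) RNA was performed by the authors (NEBNext Ultra kit, Illumina NovaSeq). The deposited values are estimated counts for each gene and library, not normalized by the authors, and 10.5% of them were not whole. The submitters' processing notes name Bowtie2 2.2.8, HISAT2, StringTie 1.3.1 and DESeq2. The genome build and annotation are not given in the sources used here. Counts were rounded, filtered with filterByExpr (11958 genes kept), scaled by TMM and tested in R 4.3.3 with edgeR 4.0.16 (glmQLFit, glmQLFTest, PON1-OE against NC, no covariates), with Benjamini-Hochberg adjustment over all genes tested. The design had been written for counts, and rounding was added for estimated counts. Alternatives used DESeq2 1.42.0 and limma 3.58.1. Fits were tested on simulated counts. Pairs of libraries of a group differed by more than sampling noise (chi-square per degree of freedom 2.11 to 4.11). Coordinates, exons and lengths came from GENCODE v29 (GRCh38), matched by identifier, and promoters from RefSeq. The members and lists were chosen with earlier results of these data known. All members were named, with the highest and lowest estimate of each other list and any gene of those lists past the threshold. Beyond this rule, genes marked as named after their values were seen were added. *ACOX2*, *AGXT* and *HAO1* were added as examples of genes not tested. Protein targeting signals were planned and not analysed here. A marker gene on the fixed list is not reported here.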

Additional observations from a re-analysis of the deposited data

How the results depend on the processing

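Among all genes, 81 calls became 177 without a filter, 6 with a change over 1.5-fold and 1325 at an unadjusted p under 0.05, and leaving out each library in turn gave 11 to 103. Among the members, the single call (*ACBD5*) became 0 with a change over 1.5-fold and 4 at an unadjusted p, and was 0 to 0 without each library in turn. It remained with RLE scaling, with no filter, with at least 10 counts in every library, in DESeq2 and in limma-voom. The median log2FC of the members was -0.0047 to 0.026 without each library in turn. At an unadjusted p, 5 other peroxisomal genes, 1 tether partner or acyl-CoA-binding gene and 1 regulator or turnover gene passed, where 11.1% of all genes did. The median level of the members per kilobase, 9.39, was 6.13 over the union of exons and 12.3 with the principal transcript, an alternative chosen after seeing the data. Replicate numbers did not pair the samples: deviations of same-numbered libraries correlated at -0.02 to 0.02, and 0 of 6 libraries correlated best with their own number. With the replicate number as a block, all genes gave 40 calls and the members 0. The genes checked for a missing adjusted p in DESeq2 were *PON1* and the highest and lowest of each other list. It gave none for 7 of these (*GDAP1*, *MOSPD3*, *NUDT7*, *PPARA*, *DDO*, *ACBD6* and *PON1*). The members were not checked for this, so some of them may have had none either. This need not be limited to those with the fewest counts, since *PPARA* had 311 to 431 counts in a library. The cause of the lost call of *ACBD5* was not tested. Members with few counts, such as *ACBD4* and *PEX7*, had the wide intervals given above.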
